A study of Mus musculus with 12 samples.

Results

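The lungs of mice given the tobacco carcinogen NNK as well as bacterial endotoxin were compared with the lungs of mice given endotoxin alone. The members are the 3 arrays titled LPS and NNK together and the 3 arrays titled LPS, which makes 6 of the 12 arrays in the series, and no PBS array enters the difference between them. LPS/NNK mice received NNK (3 mg per mouse into the peritoneum, biweekly during the first 4 weeks) and LPS. LPS mice received LPS alone, 5 ug per mouse dropped into the nose each week for 16 weeks, and this course was common to both groups. NNK mice received the carcinogen without LPS, and PBS mice received PBS weekly for 16 weeks. All were FVB/N mice (strain FVB/NJ) with no engineered allele named in the labels, labelled female and aged 7 weeks at the start, and lung RNA was taken 1 week after the last treatment. The labels name no vehicle injection for the LPS mice, so the injections themselves may also differ between the groups. Whether tumour nodules were part of the tissue, and whether the 3 replicates of a group were housed or processed together, is not given in the sources used here. The p-values therefore measure the spread between arrays within groups, over all 12 arrays of the series.

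NNK is a nitrosamine of tobacco that becomes reactive only after oxidation by cytochrome P450 enzymes, several of which are abundant in club cells of the airway and in alveolar type 2 cells. Its products alkylate DNA, and FVB mice develop lung adenomas that usually arise from alveolar epithelium. LPS is read by the receptor Tlr4 with its partners, which turns on NF-kB targets, draws neutrophils and monocytes, and after repeated doses leaves lymphocytes and macrophages in the tissue. Interferon gamma, made by T cells and natural killer cells, induces genes such as the guanylate-binding proteins. In whole lung RNA, fewer cells of a type and less RNA per cell cannot be told apart.

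All 6 arrays carried lung markers. Sftpc, the surfactant gene of alveolar type 2 cells, had log2 levels of 9.64, 10.90 and 10.97 on the LPS/NNK arrays and 9.36, 9.90 and 10.07 on the LPS arrays, where a log2 level is log2 of the background-subtracted signal minus the array's own 75th percentile, so that 0 is the brightness of that percentile. Xist, the RNA that silences an X chromosome in females, was well above background on all 6 arrays. The share of spots well above background was 66.3%, 57.3% and 56.4% for LPS/NNK 2, 3 and 6, and 57.3%, 56.1% and 55.6% for LPS 1, 5 and 6. Only 3 arrays per group limit the precision.

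LPS/NNK 2 stood apart from the other arrays of its group. Across items its log2 levels correlated with LPS/NNK 3 and 6 at r of 0.965 to 0.971 and with the 3 LPS arrays at 0.969 to 0.980, whereas LPS/NNK 3 and 6 correlated with each other at 0.987 and with the LPS arrays at 0.945 to 0.965. For the items called higher below, the median difference from the LPS mean was 1.13 in LPS/NNK 2, 1.54 in LPS/NNK 3 and 1.59 in LPS/NNK 6, and for those called lower it was -0.84, -1.53 and -1.61. These items were called on means that include LPS/NNK 2, so its direction there was fixed by the choice of items. Slides followed the groups: the LPS/NNK arrays lay on slides 6, 7 and 8 in position 4, and the LPS arrays on slides 2, 3 and 4 in position 2. For these 6 arrays, slide, position and treatment cannot be told apart.

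Of 21853 items (13645 named genes and, for the rest, a probe's own identifier), 898 differed between LPS/NNK and LPS at a Benjamini-Hochberg adjusted p under 0.05 in limma, 4.11% of those tested. There were 622 higher (2.85%) and 276 lower (1.26%) in LPS/NNK, of which 297 and 176 were named genes, and 839 changed by at least 1 on the log2 scale. LPS/NNK and LPS arrays were fully separated for 890 of the called items and for 20.9% of all items tested (12.9% higher and 7.99% lower in LPS/NNK). Many calls were of dim probes: 206 of the called rises were not well above background on any LPS array, 24 of the called falls were not well above background on any LPS/NNK array, and 539 called items were detected on all 6 arrays. The median change over all items was 0.11. Cyclic loess normalization gave 550 higher among 969 called, 56.8% against 69.3% as reported here.

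**Figure D1:**
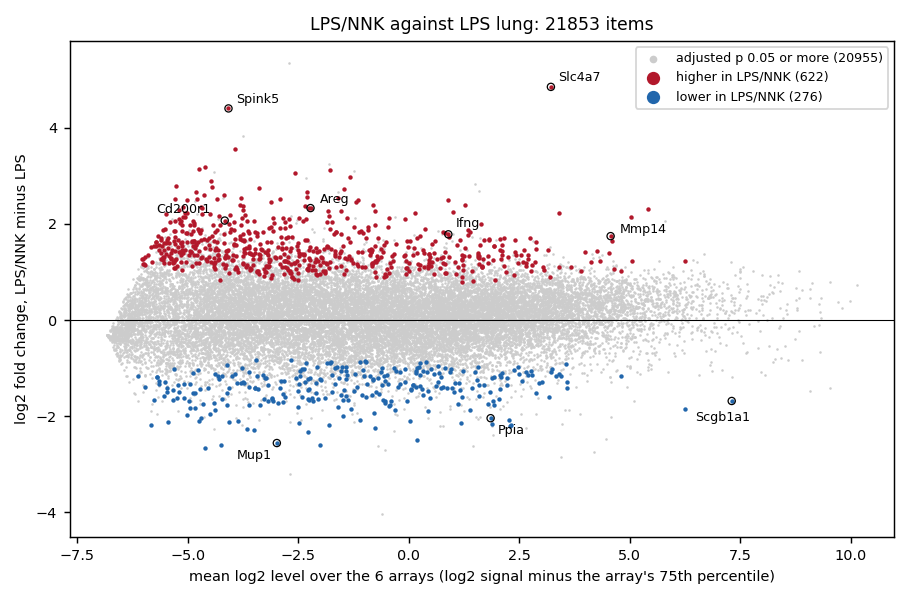
Each point is 1 item, with its mean log2 level over the LPS/NNK and LPS arrays on the horizontal axis and the log2 fold change (LPS/NNK minus LPS) on the vertical axis. The 622 items higher in LPS/NNK are red, the 276 lower are blue, and many of the red points lie at low levels; Slc4a7, Mmp14 and Scgb1a1 are among the called genes with bright signals.

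The count of calls rested on single arrays and on the background correction. It was 4832 without LPS/NNK 2, 79 without LPS/NNK 3, 109 without LPS/NNK 6, 299 without LPS 1, 359 without LPS 5 and 570 without LPS 6. A core of 61 items, 51 higher and 10 lower, was called as reported and without each of the 6 arrays in turn, and 31 of them were named genes. Normexp background correction left 0 items called in limma (1522 at an unadjusted p under 0.05) and moved the median of all items to 0.31. On NNK 2, 10 spots lay up to 101720 units under their own local background, and the normexp fit gave that array a background SD of 1241, against 0.96 to 1.26 on the 9 arrays with no such spot. LPS/NNK 2, an array of this comparison, had 3 such spots and an SD of 65.2, and PBS 3 had 2 and an SD of 35.6. With spots more than 20 units under their background left out of the fit, an alternative chosen after seeing the data, 193 items were called, 132 higher and 61 lower, and 185 of them were among the 898. Spread was shared with the NNK and PBS arrays in the model, and 38 items were called when only the 6 arrays were fitted.

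The numbers of the slides form 2 runs, 1 to 4 and 5 to 8, and only PBS had arrays in both. With the run as a term in the model, which then rests on PBS 2 against PBS 1 and 3, 1 item was still called, Spink5 (log2 fold change 4.28, adjusted p = 0.0469). The change between LPS/NNK and LPS and the difference of PBS 1 and 3 from PBS 2 correlated at r = 0.11 across 16050 items detected on all of these arrays, where items are not independent replicates. All 50 called genes described below kept their sign in that fit. They were chosen for their large change between LPS/NNK and LPS, so the kept sign is no support. Among genes described that were not called, the fit turned the sign of Cdkn1a, Cd274, Xist, Kif20a, Il1b and C1qc. Of the 50 called genes 12, Mug1 among them, were called without each of the 6 arrays in turn and 17 after the second normexp fit.

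Among the largest rises were a protease inhibitor of epithelium, plasma-type proteins and genes of the mitotic spindle and chromatin. Spink5, which encodes the serine protease inhibitor LEKTI of skin and mucosal surfaces, had log2 levels of -2.53, -1.59 and -1.52 on the LPS/NNK arrays and -6.51, -6.24 and -6.10 on the LPS arrays. No LPS array was well above background. Counted against the lowest signal that was still well above background on those arrays, the gene was at least 5.53-fold higher in LPS/NNK as processed here. This bound was not tested. The adjusted p of 8.2e-06 in limma belongs to the log2 fold change of 4.41, which rests on undetected LPS signals. Its 3 LPS/NNK arrays lay far from all LPS arrays. Hrg, a histidine-rich plasma glycoprotein made mainly in liver, had -1.65, -0.73 and -0.70 in LPS/NNK and -3.95, -3.35 and -3.47 in LPS, a rise of 2.56 (SE 0.37, adjusted p = 0.00792). Mug1, a murinoglobulin that traps proteases in plasma, was at least 1.39-fold higher, with -3.82, -4.05 and -3.74 in LPS/NNK and -7.03, -6.47 and -6.51 in LPS. It passed the detection filter through LPS/NNK alone, so this is a description and its call no support.

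Slc4a7, a sodium bicarbonate cotransporter, had the largest log2 fold change of the named genes called, 4.86 (SE 1.05, adjusted p = 0.0259). Its levels were 2.83, 7.11 and 6.99 in LPS/NNK and -1.22, 2.40 and 1.19 in LPS, so LPS/NNK 2 lay just above the highest LPS array. Other probes of the gene differed by 0.84 and 0.39. Galnt5, an enzyme that starts mucin-type glycosylation, rose by 2.51 (SE 0.37, adjusted p = 0.00813), with levels of -2.34, -1.64 and -0.99 in LPS/NNK and -4.32, -4.10 and -4.10 in LPS. Tnfsf12, the cytokine TWEAK, rose by 2.72 (SE 0.58, adjusted p = 0.0242). Its LPS/NNK arrays lay together, at -0.10, -0.14 and -0.08, and its LPS arrays at -3.21, -3.19 and -2.08.

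Ckap5, which builds microtubules at the mitotic spindle, had -0.89, 0.43 and 0.77 in LPS/NNK and -2.55, -2.46 and -2.20 in LPS. It rose by 2.50 (SE 0.39, adjusted p = 0.00968), while another probe of the gene differed by -0.37. Amd2, a copy of the enzyme that feeds polyamine synthesis, had 1.42, 3.15 and 2.83 in LPS/NNK and 0.31, 0.20 and -0.31 in LPS, a rise of 2.40 (SE 0.38, adjusted p = 0.00995). Its sequence is close to that of Amd1, so the probe may read both. H1f1, a linker histone, rose by 2.33 (SE 0.49, adjusted p = 0.023), with LPS/NNK 2 at -2.65, LPS/NNK 3 at -0.40 and LPS/NNK 6 at -0.23, and the LPS arrays at -3.49, -3.10 and -3.68. As with Slc4a7, most of the rise was in 2 of the 3 mice.

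The remaining large rises were of genes that no LPS array detected. Rgmb, a co-receptor for bone morphogenetic proteins, was at least 3.53-fold higher as processed here. Hacl1, a lyase that shortens branched fatty acids in peroxisomes, was at least 2.40-fold higher, and Cd300ld3, a receptor of the CD300 family on myeloid cells, at least 1.48-fold. These bounds were not tested. The limma tests were of log2 fold changes of 2.53, 2.52 and 2.50 that rest on undetected LPS signals (adjusted p = 0.00995, 0.00519 and 0.00112). After the second normexp fit Rgmb was at 0.84, Hacl1 at 0.62 and Cd300ld3 at 0.48, and none was called. Of the 12 largest rises, Spink5, Hrg, Hacl1, Galnt5, Ckap5, Cd300ld3 and Amd2 were called without each of the 6 arrays in turn. Mug1 was called in each of these fits too, which is no support, since it passed the detection filter through LPS/NNK alone. Calls were lost for Rgmb without LPS/NNK 3 (adjusted p = 0.0537), for Slc4a7, Tnfsf12 and H1f1 without LPS/NNK 3, LPS/NNK 6 or LPS 1, for Tnfsf12 and H1f1 without LPS 5 and for Slc4a7 and H1f1 without LPS 6, with adjusted p of 0.0501 to 0.115. After the second normexp fit, Slc4a7, Spink5, Tnfsf12, Ckap5 and Amd2 were still called, with a log2 fold change of 1.25 for Spink5.

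**Figure D2:**
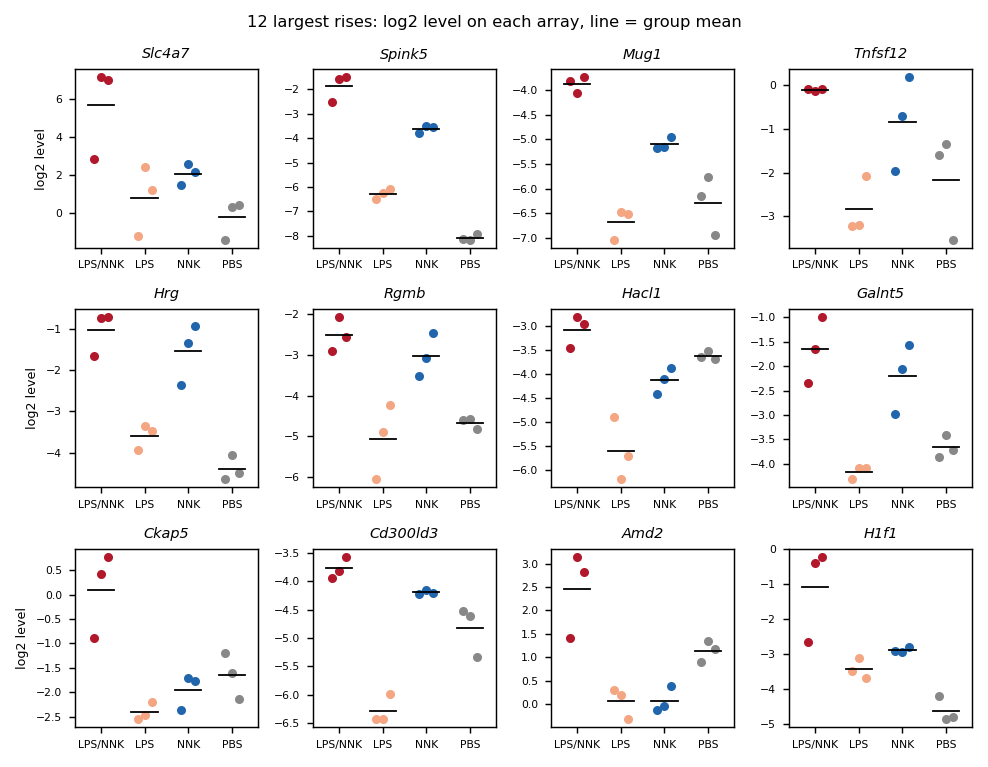
The log2 level (log2 signal minus the array's 75th percentile) of the 12 largest rises on each array, by group, with a line at the group mean; each panel has its own vertical scale. For Slc4a7 and H1f1 the lowest of the 3 LPS/NNK points lies near the LPS points, and Spink5 and Hrg are also higher in NNK than in PBS.

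The largest falls included a chaperone, an enzyme of nucleotide breakdown, and genes of cilia and iron handling. Ppia, the chaperone cyclophilin A, had 1.23, 0.56 and 0.69 in LPS/NNK and 2.16, 3.05 and 3.41 in LPS, a fall of 2.04 on the log2 scale (log2 fold change -2.04, SE 0.32, adjusted p = 0.00976). Ppia is often used as a constant control gene and has many processed copies in the genome, so the signal of its probe may be shared. Entpd8, which breaks down nucleotides outside the cell, had -4.85, -5.60 and -6.20 in LPS/NNK, where 1 array was well above background, and levels between -3.33 and -2.52 in LPS (log2 fold change -2.60, SE 0.42, adjusted p = 0.00995).

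In several falls LPS/NNK 2 lay near the LPS arrays. Usf2, a transcription factor that binds E-boxes, had 1.36, -0.45 and -0.59 in LPS/NNK and 2.12, 2.83 and 1.78 in LPS (log2 fold change -2.14, SE 0.44, adjusted p = 0.0221). Tcte1, a part of the regulatory complex of motile cilia and sperm tails, had -1.64, -4.28 and -4.46 in LPS/NNK and -1.39, -0.83 and -1.14 in LPS (-2.34, SE 0.59, adjusted p = 0.045). It was well above background on 1 of 3 LPS/NNK arrays, so the fold rests partly on undetected signals. Stk40, a kinase-like signalling protein, fell by 2.14 (SE 0.52, adjusted p = 0.0397), with -1.89, -4.77 and -4.02 in LPS/NNK and -1.63, -1.05 and -1.59 in LPS. In each of these genes LPS/NNK 2 lay just under the lowest LPS array, while LPS/NNK 3 and 6 were far lower.

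Mindy4, of a family of deubiquitinases, fell by 2.28 (SE 0.55, adjusted p = 0.0379), and Lrrc36, a leucine-rich repeat protein, fell by 2.13 (SE 0.52, adjusted p = 0.0397). Adrb1, an adrenergic receptor of heart and lung, was also lower (log2 fold change -2.19, SE 0.49, adjusted p = 0.0308). Hjv, the hemojuvelin co-receptor that sets hepcidin levels, fell by 2.29 (SE 0.49, adjusted p = 0.0242), and Thrsp, which promotes fat synthesis, by 2.09 (SE 0.49, adjusted p = 0.0361). Mindy4, Lrrc36 and Hjv were well above background on 1 of 3 LPS/NNK arrays, so their folds rest partly on undetected signals, and after the second normexp fit they were at -0.52, -0.27 and -0.51 and not called. Mup1, a major urinary protein, also detected on 1 of 3 LPS/NNK arrays, fell by 2.56 (SE 0.63, adjusted p = 0.0423). Its LPS/NNK arrays lay at -4.12, -4.32 and -4.37 and its LPS arrays at -3.13, 0.35 and -2.33, so LPS 5 set much of the difference, and its probe may read other genes of that near-identical family. Ppia and Entpd8 were called without each of the 6 arrays in turn. The calls of the other 9 falls described were lost without LPS/NNK 3 or LPS/NNK 6, and most of them without LPS 1, LPS 5 or LPS 6 (adjusted p of 0.0542 to 0.183 where lost). After the second normexp fit Usf2 and Ppia were still called, and the planned normexp fit gave Entpd8 -0.02 and Lrrc36 0.02.

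**Figure D3:**
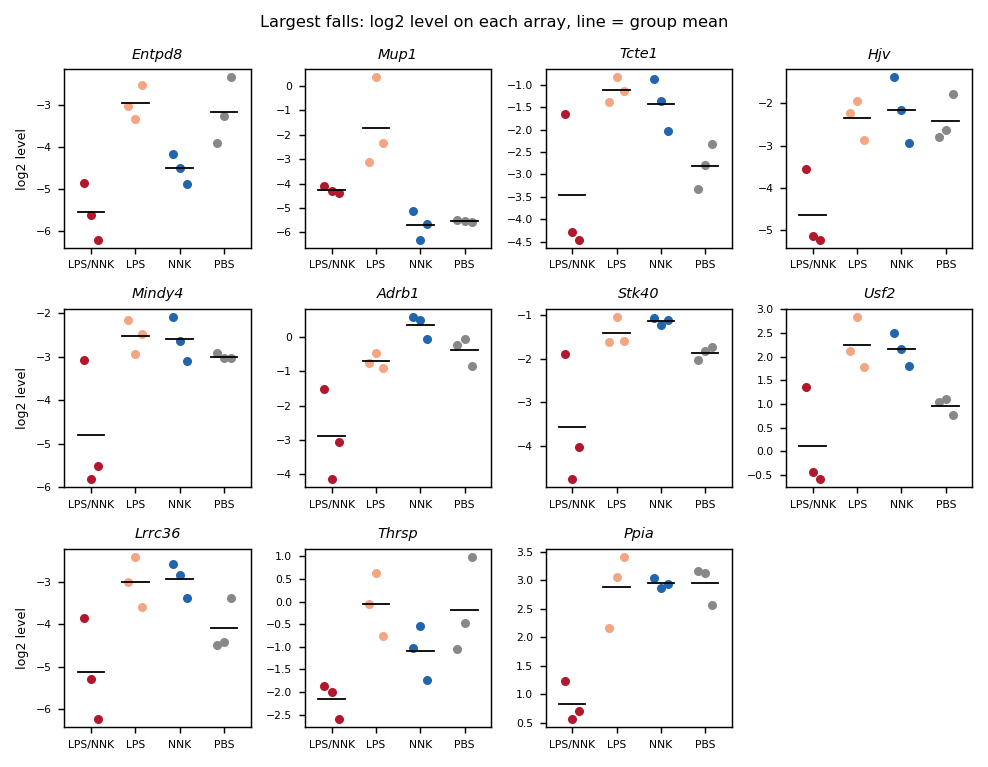
The log2 level of 11 of the largest falls on each array, by group, with a line at the group mean; each panel has its own vertical scale. The 3 LPS/NNK points of Ppia lie together below all other groups, whereas 1 LPS/NNK point of Tcte1, Stk40 and Usf2 lies near the LPS points.

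Of the genes of club cells, the secretory cells of small airways, the most abundant one fell in LPS/NNK. Scgb1a1, the main secreted protein of club cells, had log2 levels of 5.68, 6.85 and 6.86 in LPS/NNK and 8.27, 8.10 and 8.08 in LPS, and fell by 1.69 (SE 0.29, adjusted p = 0.0137). The LPS arrays lay close together and above every LPS/NNK array, and LPS/NNK 2 was the lowest of all. The call held without each of the 6 arrays in turn and after the second normexp fit (-1.69, adjusted p = 0.0072). Of 20 measured club, goblet and basal cell genes 2 fell and 1 rose (1.26% and 2.85% of all items). Their median was -0.47 and became -0.08 without LPS/NNK 6. Cckar, the cholecystokinin receptor, was the other fall (-1.47, SE 0.26, adjusted p = 0.0147), a call lost without LPS/NNK 6 (adjusted p = 0.0632). Krt14, a keratin of basal cells, rose by 1.45 (SE 0.32, adjusted p = 0.0287), a call lost without LPS/NNK 3, LPS 1 or LPS 5 (adjusted p of 0.0669 to 0.126).

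Other airway genes did not pass the test and differed in direction. Tff2, a trefoil peptide of mucus, was at 0.56, 0.75 and -2.27 in LPS/NNK and 2.04, 2.54 and 1.08 in LPS (-2.21, adjusted p = 0.0677), and Muc1, a surface mucin, at 2.58, 0.33 and -0.08 in LPS/NNK and 2.48, 3.40 and 2.37 in LPS (-1.80, adjusted p = 0.0699). None of 19 secreted defence genes and none of 13 ciliated cell genes passed in either direction (4.11% of all items did), with medians of -0.34 and -0.33. Of the secreted defence genes 6 had a positive change, among them Slpi, a protease inhibitor of mucus, at 1.37 (SE 0.47, adjusted p = 0.0999) with no overlap. Of the ciliated genes 2 had a positive change. Hydin and Tubb4b, parts of the ciliary axoneme and its microtubules, had -1.14 and -1.21 (adjusted p = 0.0818 and 0.073).

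Alveolar genes did not move as a block. Of 23 alveolar type 2 genes Etv5, a transcription factor that maintains these cells, was the call, with -0.22, -1.43 and -2.08 in LPS/NNK and 0.72, 0.36 and 0.24 in LPS (-1.69, SE 0.40, adjusted p = 0.0357). Over all items 4.11% were called, so this count is near the background. A second probe of Etv5 was at -0.88. The call of Etv5 was lost without any array but LPS/NNK 2 (adjusted p of 0.0574 to 0.147). Sftpb, another surfactant protein gene, was at -1.04 (SE 0.33, adjusted p = 0.0852) and Abca3, which loads surfactant lipid, at 1.07 (SE 0.30, adjusted p = 0.0577). The other probes of Abca3 were at -0.20 and -0.49, so its probes disagreed. Sftpc differed by 0.73 (SE 0.38, adjusted p = 0.237). None of 17 alveolar type 1 and sodium channel genes passed the test, and Ager, a defining type 1 gene, was at -0.36 (SE 0.28, adjusted p = 0.432).

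Interferon gamma and some of its targets were higher in LPS/NNK. Ifng had log2 levels of 1.24, 1.83 and 2.30 on the LPS/NNK arrays and -0.15, 0.72 and -0.56 on the LPS arrays, and rose by 1.78 (SE 0.43, adjusted p = 0.0387). A second probe differed by 1.32. Gbp5, a guanylate-binding protein that helps assemble inflammasomes, had 2.87, 3.85 and 3.02 in LPS/NNK and 1.29, 1.99 and 1.44 in LPS, a rise of 1.67 (SE 0.41, adjusted p = 0.0423). Both genes had no overlap between the groups. Ifi205, an interferon-induced gene of the PYHIN family, rose by 1.21 (SE 0.31, adjusted p = 0.0471), and its second probe was at 0.84.

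The promoters of these genes are shown because the GAS motif and the interferon response element (ISRE) are known sites of interferon-activated factors. The 250 bases before the start of each gene come from RefSeq (GRCm38.p6), written 5′ to 3′ on the gene's strand, with GAS (TTCNNNGAA) and ISRE (TTTC, any 2 bases, TTTC, or the reverse complement of that) in capitals. Both strands were searched.
Ifng (chr10:118440796-118441045, plus strand): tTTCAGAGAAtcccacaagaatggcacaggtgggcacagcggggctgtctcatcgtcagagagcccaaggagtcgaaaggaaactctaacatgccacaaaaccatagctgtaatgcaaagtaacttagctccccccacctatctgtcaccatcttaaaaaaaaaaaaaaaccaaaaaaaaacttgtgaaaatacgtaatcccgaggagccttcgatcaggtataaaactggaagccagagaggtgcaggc
Gbp5 (chr3:142496684-142496933, plus strand): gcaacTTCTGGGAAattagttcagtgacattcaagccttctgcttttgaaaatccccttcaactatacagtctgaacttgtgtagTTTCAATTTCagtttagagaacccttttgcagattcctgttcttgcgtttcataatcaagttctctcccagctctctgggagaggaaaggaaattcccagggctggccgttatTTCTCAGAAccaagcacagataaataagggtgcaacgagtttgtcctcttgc
The Ifng window held 1 GAS match, 249 to 241 bases before the start. Gbp5 held GAS matches 245 to 237 and 52 to 44 bases before the start and an ISRE match at 165 to 156, and none of them overlapped. Among all 32851 RefSeq windows, 7.02% held a GAS match and 2.98% an ISRE match. Of 33 measured interferon response genes 26 had a window, and 17 of these (65.4%) held an ISRE match and 7 (26.9%) a GAS match. A match describes the letters and not binding.

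Across the interferon gamma list 1 of 14 measured genes rose and none fell, and 7 had no overlap and lay higher in LPS/NNK, with a median of 0.95 against 0.11 over all items, and 12.9% of all items lay higher without overlap. Cxcr6, a chemokine receptor of resident T cells, was at 1.19 (SE 0.33, adjusted p = 0.0583), Cxcr3, the receptor for interferon-induced chemokines, at 0.94 (SE 0.27, adjusted p = 0.0655), and Socs1, a feedback inhibitor of cytokine signalling, at 1.32 (SE 0.40, adjusted p = 0.0751). In the interferon response list 2 of 33 rose and none fell, and 10 lay higher with no overlap, with a median of 0.73. Over all items 2.85% rose and 1.26% fell. The summed signal of that list was 254, 380 and 194 in LPS/NNK, against 137, 240 and 117 in LPS, in units of the 75th percentile, so LPS 5 lay between LPS/NNK 6 and LPS/NNK 2. These medians turned negative with the slide run in the model, at -0.17 for the interferon gamma list and -0.40 for the interferon response list, where Ifng was at 0.52 and Gbp5 at 0.36. The calls of Ifng, Gbp5 and Ifi205 were lost without LPS/NNK 3, LPS/NNK 6, LPS 1 or LPS 6, and those of Gbp5 and Ifi205 without LPS 5 too (adjusted p of 0.0567 to 0.192), and Ifng and Gbp5 were called after the second normexp fit (adjusted p = 0.0355 and 0.0421).

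Among immune cells, monocyte genes split. Ccr2, which brings monocytes into tissue, had 0.80, 0.91 and 1.26 in LPS/NNK and -0.35, 0.06 and -0.03 in LPS, and rose by 1.09 (SE 0.26, adjusted p = 0.0379). Ly6c1, a surface antigen of monocytes and of endothelium, had 2.75, 2.91 and 2.56 in LPS/NNK and 3.88, 3.92 and 3.47 in LPS, and fell by 1.02 (SE 0.24, adjusted p = 0.038). These were the calls among 26 monocyte and tissue macrophage genes (4.11% of all items were called). Of the list 8 lay higher and 3 lower with no overlap, against 12.9% and 7.99% of all items, so the count of lower genes was near the background. C1qc, a chain of the complement starter C1q made by macrophages, was at 0.98 (SE 0.30, adjusted p = 0.0772). The summed signal of the list was 1038, 1919 and 1709 in LPS/NNK and 855, 979 and 932 in LPS. Both calls were lost without LPS/NNK 3, LPS/NNK 6, LPS 1 or LPS 5, and that of Ccr2 without LPS 6 (adjusted p of 0.0598 to 0.162), and C1qc was at -0.04 with the slide run in the model.

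Lymphocyte and neutrophil lists held few or no calls. None of 27 T cell genes, 21 B cell genes, 15 cytotoxic and natural killer genes, 22 neutrophil genes and 20 alveolar macrophage genes passed the test. Over all items 4.11% were called, so none in lists of these sizes is near the background. Cxcr2, the receptor that draws neutrophils, was at 1.36 (SE 0.36, adjusted p = 0.0502) with a second probe at 1.57. Of 11 plasma cell genes 2 fell (1.26% of all items). Tnfrsf17, the survival receptor BCMA, had -1.34, -1.66 and -1.13 in LPS/NNK and -0.04, -0.17 and 1.14 in LPS, and fell by 1.69 (SE 0.37, adjusted p = 0.0283). Xbp1, the factor that expands the secretory pathway in plasma cells and other secreting cells, had 2.53, 1.98 and 1.84 in LPS/NNK and 4.14, 3.08 and 3.66 in LPS, and fell by 1.51 (SE 0.30, adjusted p = 0.0194). Xbp1 was also the call among 21 genes of folding and stress in the endoplasmic reticulum. The summed signal of the plasma cell list was 93.1 to 108 in LPS/NNK and 124 to 172 in LPS, with no overlap. Both calls were lost without LPS/NNK 3, LPS/NNK 6 or LPS 1, and Tnfrsf17 also without LPS 6 (adjusted p of 0.0515 to 0.117). Both were called after the second normexp fit, and Tnfrsf17 was at -0.65 with the slide run in the model.

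Single cytokine and checkpoint genes were higher. Il17a, the cytokine that recruits neutrophils through epithelium, had -2.76, -1.71 and -3.36 in LPS/NNK and -3.58, -6.14 and -4.64 in LPS, where 1 of 3 arrays was well above background, a difference of 2.18 (SE 0.53). It passed the detection filter through LPS/NNK alone, so this is a description and its call no support. No other call was made among 17 inflammatory cytokine and inflammasome genes, and Il1b was at 1.77 (SE 0.61, adjusted p = 0.0991). Cd200r1, an inhibitory receptor of myeloid cells, was at least 2.32-fold higher, with -3.66, -2.92 and -2.82 in LPS/NNK and -5.22, -5.25 and -5.13 in LPS. That bound was not tested. The limma test was of the log2 fold change of 2.07, which rests on undetected LPS signals (adjusted p = 0.00659). A second probe of Cd200r1 was at 1.64, and the call held without each of the 6 arrays in turn but not after the second normexp fit (0.60, adjusted p = 0.26). It was the call among 15 checkpoint genes, and Cd274, which encodes PD-L1, was at 0.77 (SE 0.31, adjusted p = 0.144). Cxcl17, a mucosal chemokine for myeloid cells, rose by 1.55 (SE 0.40, adjusted p = 0.0482) as the call among 23 chemokines. Of 25 genes of endotoxin sensing and NF-kB, 15 of MHC class I, 20 of MHC class II and dendritic cells, 16 of lymphoid tissue, 17 of type 2 and mast cell responses and 22 of the acute phase and complement none passed. Over all items 4.11% were called, so none or 1 in each list of this paragraph is near the background. Il17a lost its call without LPS/NNK 3, LPS/NNK 6, LPS 5 or LPS 6 (adjusted p of 0.0673 to 0.161) and Cxcl17 without any array but LPS/NNK 2 (adjusted p of 0.0543 to 0.186). With the slide run in the model Il1b was at -0.51, Cd274 at -0.38 and Cxcl17 at 0.82.

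Genes of cell division lay mostly higher in LPS/NNK, but 1 of 34 passed the test (4.11% of all items did). Cenpf, a kinetochore protein of mitosis, had -1.38, -0.19 and -0.86 in LPS/NNK and -3.30, -2.10 and -2.38 in LPS, and rose by 1.79 (SE 0.46, adjusted p = 0.0464). Of the 34 genes 29 had a positive change and 16 lay higher with no overlap, against 12.9% of all items, with a median of 0.67 against 0.11 over all items. Cenpa, the histone of centromeres, was at 1.07 (SE 0.29, adjusted p = 0.0533), Kif20a, a motor of cell division, at 1.19 (SE 0.37, adjusted p = 0.0778), and Bub1, a spindle checkpoint kinase, at 1.22 (SE 0.38, adjusted p = 0.0776). The summed signal of the list was 58.7, 91.2 and 82.9 in LPS/NNK and 52.8, 50.7 and 50.8 in LPS. With the slide run in the model the median was -0.18, Cenpf was at 0.57 and Kif20a at -0.07. Cenpf lost its call without any array but LPS/NNK 2 (adjusted p of 0.0653 to 0.179). Mki67, the usual proliferation marker, was not among the named items.

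Clustered histone genes, whose transcripts are made in S phase, had a median of 0.94 over 12 measured members, and H1f1 was the call (4.11% of all items were called). Their summed signal was 80.8 in LPS/NNK 2, 152 in LPS/NNK 3 and 169 in LPS/NNK 6, against 85.4, 89.3 and 103 in LPS, so LPS/NNK 2 was the lowest of the 6 arrays. Of 27 targets of p53, the factor that answers DNA damage, 1 rose (2.85% of all items), Psrc1, a spindle protein (1.46, SE 0.34, adjusted p = 0.0342). Other probes of Psrc1 were at -0.17 and 0.27, and its call was lost without LPS/NNK 3, LPS/NNK 6, LPS 1 or LPS 5 (adjusted p of 0.0791 to 0.138). Gadd45a, a stress sensor, was at 0.87 (SE 0.23, adjusted p = 0.0512). Cdkn1a, the p53 target that halts the cell cycle, had 1.37, 1.93 and 2.15 in LPS/NNK and 1.05, 1.83 and 1.28 in LPS, and these overlapped (0.43, SE 0.32, adjusted p = 0.407). None of 28 DNA repair genes passed.

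Of 31 genes of MAPK output and lung tumours 2 rose, Areg and Spry4, and 1 fell, Etv5 (2.85% and 1.26% of all items). The median of the list was 0.19 against 0.11 over all items. Etv5 was at -1.69, with a second probe at -0.88. Areg, the EGF receptor ligand amphiregulin, had -2.11, -1.05 and -0.01 in LPS/NNK and -3.56, -3.32 and -3.29 in LPS, and rose by 2.33 (SE 0.46, adjusted p = 0.0194). Spry4, a feedback inhibitor of that pathway, had -2.63, -2.55 and -2.25 in LPS/NNK and -5.11, -4.82 and -3.67 in LPS, where 1 of 3 arrays was well above background, and rose by 2.06 (SE 0.48, adjusted p = 0.0342). Egr1, an immediate-early factor that MAPK signals induce, rose by 1.45 (SE 0.34, adjusted p = 0.0366), with 2.26, 3.45 and 2.66 in LPS/NNK and 0.71, 1.86 and 1.45 in LPS. Egr1 was the call among 29 clock and immediate-early genes (4.11% of all items were called), and Junb, a subunit of AP-1, was at 1.01 (SE 0.27, adjusted p = 0.0535).

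The promoter of Areg is shown for its CRE (TGACGTCA, in capitals), the site of the factor CREB, from the same table and window.
Areg (chr5:91139349-91139598, plus strand): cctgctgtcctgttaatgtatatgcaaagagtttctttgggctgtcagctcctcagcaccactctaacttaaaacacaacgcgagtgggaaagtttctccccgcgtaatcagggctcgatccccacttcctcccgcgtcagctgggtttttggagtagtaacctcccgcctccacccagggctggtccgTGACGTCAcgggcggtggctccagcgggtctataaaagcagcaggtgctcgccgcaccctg
The match lay 61 to 54 bases before the start, and 1.55% of all windows held one. Areg and Spry4 lost their calls without LPS/NNK 3, LPS/NNK 6, LPS 1 or LPS 5 (adjusted p of 0.0519 to 0.125) and Egr1 without LPS/NNK 3, LPS/NNK 6, LPS 1 or LPS 6 (adjusted p of 0.0611 to 0.152), and Egr1 was called after the second normexp fit.

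The 32 measured genes of enzymes that oxidise and conjugate foreign compounds had a median of -0.29. Without overlap 8 lay lower and 3 higher, against 7.99% and 12.9% of all items, so the count of higher genes was not above the background. Cyp2b10, a P450 of that group, was at -1.10 (SE 0.30, adjusted p = 0.0533), and Cyp2a5, a mouse P450 that activates NNK, had 2.81, 4.20 and 3.35 in LPS/NNK and 4.03, 4.00 and 3.56 in LPS, which overlapped (-0.41, SE 0.43, adjusted p = 0.565). Keap1, the sensor that holds Nrf2 in check, had 4.04, 4.42 and 4.23 in LPS/NNK and 3.18, 3.33 and 2.89 in LPS, and rose by 1.10 (SE 0.22, adjusted p = 0.0194). It was the call among 27 Nrf2 and glutathione genes, which is near the background (4.11% of all items were called). That call was lost without LPS/NNK 3 or LPS/NNK 6 (adjusted p = 0.0908 and 0.0818). After the second normexp fit Keap1 was called (1.01, adjusted p = 0.0295).

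In the matrix, Mmp14, the membrane protease that cuts collagen, had 5.29, 5.68 and 5.35 in LPS/NNK and 3.59, 3.47 and 4.03 in LPS, and rose by 1.75 (SE 0.31, adjusted p = 0.0147). A second probe of Mmp14, detected on all 6 arrays, was at 0.08, so the probes disagreed. Thbs1, a matrix glycoprotein that activates TGF-beta, rose by 1.41 (SE 0.36, adjusted p = 0.0474), and its other probes were at 0.68 and 0.33. Fn1, fibronectin, had 2.02, 1.55 and 0.88 in LPS/NNK and 2.27, 2.86 and 2.89 in LPS, and fell by 1.19 (SE 0.30, adjusted p = 0.0456), with other probes at -1.50 and -0.59. These were 3 of 33 measured fibroblast and matrix genes (4.11% of all items were called). The call of Mmp14 needed LPS/NNK 3 (adjusted p = 0.0687 without it), and Thbs1 and Fn1 without any array but LPS/NNK 2 (adjusted p of 0.0544 to 0.188). None of 30 endothelial genes passed; Gja5 was at -1.32 (SE 0.35, adjusted p = 0.0515), with its second probe at -0.21, and Nos3 at -1.16 (SE 0.32, adjusted p = 0.0554).

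Genes of tissues that can be taken with lung were called in both directions. Of 22 measured genes of blood, heart, fat, muscle and thymus 2 rose and 2 fell (2.85% and 1.26% of all items), with a median of -0.55. Without overlap 3 lay higher and 5 lower, against 12.9% and 7.99% of all items, so the count of higher genes was near the background. The fat markers were at -1.95 for Retn (adjusted p = 0.0846), -1.93 for Adipoq (adjusted p = 0.112), -1.63 for Plin1 (adjusted p = 0.13) and -1.26 for Cfd (adjusted p = 0.186), and they were named after their values were seen. None passed the test, and the LPS/NNK and LPS arrays overlapped for Cfd but not for Retn, Adipoq or Plin1. Thrsp, a called fall above, is also abundant in fat. The summed signal of all 22 genes of blood, heart, fat, muscle and thymus was 413, 829 and 930 in LPS/NNK and 643, 914 and 760 in LPS. Ckm, the creatine kinase of muscle (-1.77, SE 0.40, adjusted p = 0.0312), and Myl4, an atrial myosin light chain (-1.60, SE 0.42, adjusted p = 0.0486), fell, and Car1, an erythroid carbonic anhydrase (1.48, SE 0.27, adjusted p = 0.0166), and Dntt, a lymphoid DNA polymerase (1.24, SE 0.29, adjusted p = 0.0342), rose. Their part in the other results was not tested. All 4 lost their call without LPS/NNK 3 or LPS/NNK 6, and all but Car1 without LPS 1 or LPS 5 (adjusted p of 0.0542 to 0.196 where lost). None of 25 lipid, 24 respiratory chain, 14 nerve and neuroendocrine and 11 heat shock genes passed. Of 22 ribosomal and housekeeping genes Ppia was the call (4.11% of all items were called). Gapdh was at -0.81 (SE 0.25, adjusted p = 0.0779) and Eef1a1 at 0.94 (SE 0.28, adjusted p = 0.0718), while a second probe of Eef1a1 was at -0.07.

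**Figure D4:**
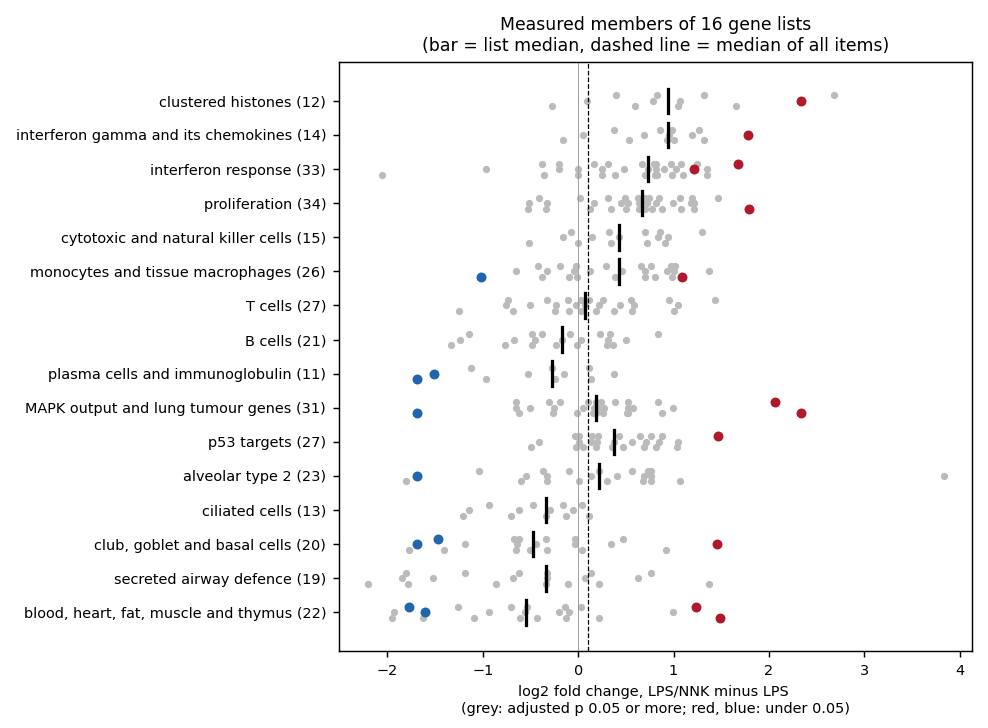
The log2 fold change (LPS/NNK minus LPS) of each measured member of 16 gene lists, with the number measured in brackets, a bar at the list's median and a dashed line at the median of all items (0.11). Members past the test are red or blue; the medians of the histone, interferon and proliferation lists lie right of the dashed line, with 1 or 2 called members each.

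The same carcinogen without endotoxin gives a comparison that shares no array with this one. In NNK against PBS 11264 items were called (51.5%; 27.8% higher and 23.7% lower in NNK). Of the 622 items higher in LPS/NNK than in LPS, 186 were also higher and 164 lower in NNK than in PBS, and of the 276 lower ones 62 were higher and 37 lower. Xist was at -8.43 and -8.40 on PBS 1 and PBS 2 and -1.69 on PBS 3, although all mice are labelled female, so the PBS group is not uniform. Among the 12 largest rises 6 were also higher in NNK than in PBS, Mug1 among them, and 1 was lower. Mug1 was well above background on 1 NNK and 2 PBS arrays and passed the detection filter through LPS/NNK alone, so it is no support. Spink5 had -3.80, -3.52 and -3.53 in NNK and -8.13, -8.16 and -7.93 in PBS (4.46, SE 0.28, adjusted p = 4.28e-06). Hrg differed by 2.87 (SE 0.37), Galnt5 by 1.46 (SE 0.37), Keap1 by 1.16 (SE 0.22), Egr1 by 2.58 (SE 0.34) and Krt14 by 1.70 (SE 0.32), all with adjusted p under 0.05.

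The difference between the effects of NNK with and without endotoxin was tested as an interaction, which called 8464 items (38.7%) and 559 of the 898. The 898 were chosen on the change between LPS/NNK and LPS, which is itself part of the interaction. The count of 559 is therefore partly fixed by that choice and is no support. For Spink5 the interaction was -0.05 (SE 0.39, adjusted p = 0.922), for Keap1 -0.06 (SE 0.31, adjusted p = 0.888) and for Hrg -0.31 (SE 0.53, adjusted p = 0.657). A p above the threshold does not show that the effects were alike. For Scgb1a1 the interaction was -1.71 (SE 0.42, adjusted p = 0.0079), since its levels were 7.97, 7.88 and 7.80 in NNK and 7.97, 7.92 and 7.68 in PBS. For Amd2 it was 3.46 (SE 0.53, adjusted p = 0.00135), and for Ifng 2.70 (SE 0.61, adjusted p = 0.0056), with -3.98, -3.14 and -3.18 in NNK and -2.28, -3.36 and -1.92 in PBS. Among the 11 largest falls described the interaction was called for 9, including Usf2 and Ppia. These genes were picked for their large falls between LPS/NNK and LPS, so this count too is partly fixed by the choice.

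**Figure D5:**
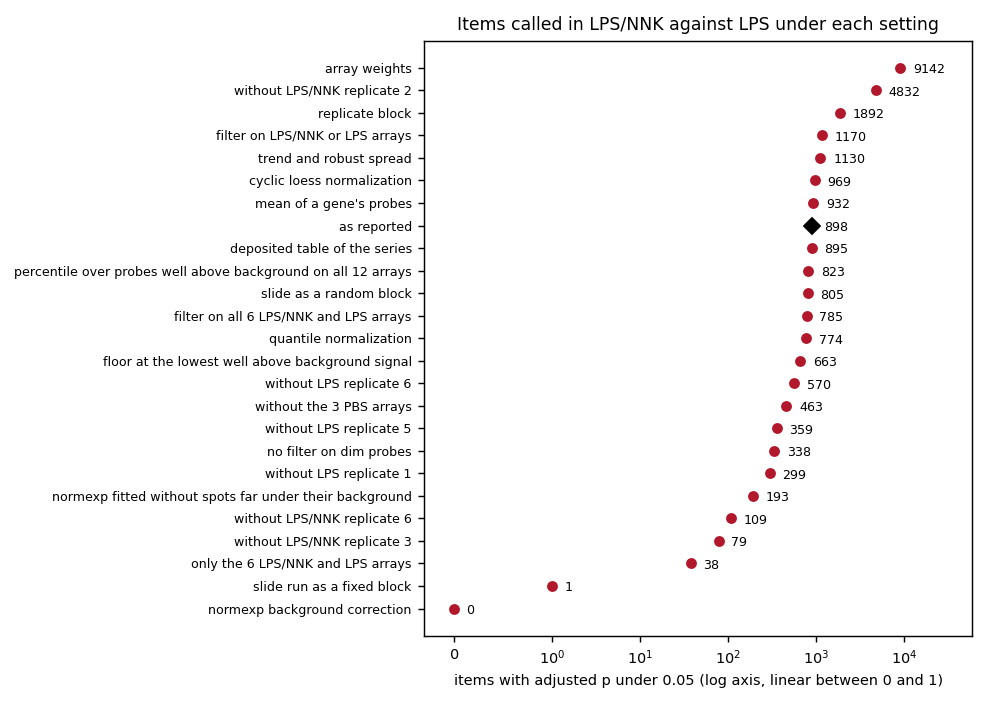
The number of items called in LPS/NNK against LPS (adjusted p under 0.05 in limma) under each setting, on a log axis that is linear between 0 and 1; the diamond is the count as reported, 898. Normalization settings lie between 774 and 969, and leaving out single arrays gives 79 to 4832.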

How the data were processed

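Lung RNA of 12 mice was hybridised to 1-colour Agilent arrays. The intensity values were made by the authors with Agilent Feature Extraction (10.7.3.1, per the file headers), and Partek is named without a version in the submitters' processing notes. The authors' deposited log2 table matched the scanner values within 0.01 for 99.9% of values. Here log2 of the processed signal minus each array's 75th percentile was used, outlier spots were dropped and replicate spots averaged. Of 41174 probes 24375 (59.2%) were named through RefSeq accessions. Probes were kept where 1 group or more had every array well above background, and the brightest probe stood for its gene, which gave 21853 items. No spot was saturated. limma 3.58.1 (R 4.3.3) fitted the 4 group means over all 12 arrays, with Benjamini-Hochberg adjustment over all items. On simulated data for this comparison and these 21853 items, 32.5% of 2-fold, 84.9% of 4-fold and 98.4% of 8-fold changes were called. The simulated noise was independent for each item and array, with no shift shared by an array or slide. LPS/NNK 2 stood apart in the real data, so these shares may not hold there. An exact permutation test of 3 against 3 cannot go below p = 0.1. Named genes were the 12 largest called rises and falls whose arrays did not overlap and whose higher group was detected on all its arrays, up to 4 members of each of 40 lists with the smallest p among those so detected, and 11 genes always named; some of these genes are not reported here. Members and lists were chosen with earlier results of these data known. Normexp used median signals, since the files hold no mean signal column. Samples with the same replicate number were not taken as pairs: correlations of their deviations ranged from -0.147 to 0.408.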

Additional observations from a re-analysis of the deposited data

Results flagged for a closer look

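For 46 of 82 genes described, the change between LPS/NNK and LPS differed from the change between NNK and PBS in a test of the difference itself (limma interaction, adjusted p of 0.000871 to 0.0481). The interaction was called for 38.7% of all items. Many of these genes were chosen on their change between LPS/NNK and LPS, which is part of the interaction, so the count is partly fixed by that choice. Mug1 passed the detection filter through LPS/NNK alone, so its value is a description only. The values are differences of log2 fold changes, positive where the change was more positive in endotoxin-treated lungs. They were positive for Mug1 (1.61), Hacl1 (3.03), Ckap5 (2.8), Cd300ld3 (1.87), Amd2 (3.46), Car1 (1.55), Dntt (1.28), Thbs1 (1.88), Cd200r1 (2.69), Ifng (2.7), Gbp5 (3.21), Ifi205 (3.02), Ccr2 (2.86), Cenpf (2.37), Cd274 (1.27), Cxcr6 (2.2), Bub1 (2.46), Gadd45a (0.879), Cxcr2 (2.4) and Il1b (3.11). They were negative for Mup1 (-2.4), Tcte1 (-3.72), Hjv (-2.53), Mindy4 (-2.67), Adrb1 (-2.91), Stk40 (-2.86), Usf2 (-3.32), Lrrc36 (-3.3), Ppia (-2.04), Etv5 (-2.08), Myl4 (-1.91), Ckm (-3.01), Scgb1a1 (-1.71), Xbp1 (-1.42), Fn1 (-2.24), Ly6c1 (-1.31), Tnfrsf17 (-2.24), Ager (-1.22), Mzb1 (-1.23), Muc1 (-4.43), Sftpb (-2.74), Gja5 (-2.3), Nos3 (-2.06), Tubb4b (-2.03), Hydin (-2.06) and Gapdh (-2.42). The PBS arrays enter each of these values, and Xist was low on PBS 1 and PBS 2.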

How the results depend on the processing

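The number of items called in LPS/NNK against LPS, 898 as reported, was within 1.5 times of that under quantile and cyclic loess normalization, the percentile over detected probes, the deposited table, both stricter filters, a floor, the mean of probes, trend and robust spread, and slide as a random block. It was 0 with normexp, 193 with normexp fitted without spots far under their background (chosen after seeing the data), 338 with no filter, 38 with the 6 arrays alone, 463 without PBS and 9142 with array weights, whose estimation did not converge. Leaving out 1 array gave 79 to 4832. With a replicate block it was 1892, 750 of them shared with the 898; the numbers do not pair the samples. With the slide run as a block (chosen after seeing the data) it was 1. The interaction, 8464 as reported, gave 71 with normexp, 13197 with no filter, 13838 with array weights and 4622 with the slide run. Signs turned for Lrrc36 with normexp (0.0158), Cyp2a5 with array weights (0.00276) and Xist with the replicate block (-0.0309). They also turned with the slide run for Cdkn1a (-0.478), Cd274 (-0.380), Xist (-2.95), Kif20a (-0.0692), Il1b (-0.512) and C1qc (-0.0384). The cause was not tested. Of 1952 values of 82 genes 1432 kept direction and side of the threshold, 403 lost the call and 108 gained one. Low signal over background limits the folds of dim probes.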
